A study of Mus musculus with 8 samples.

Results

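The ABC (ATP-binding cassette) transporter genes of mouse uterine epithelium were compared between control mice and mice with a conditional deletion of Smad2 and Smad3 in the uterus. Members were all gene symbols of the deposited tables that begin with Abc, a subfamily letter from a to g and a digit, with pseudogene names left out. This gave 50 genes of 24346 symbols: 16 of subfamily A, 10 of B, 10 of C, 4 of D, 1 of E, 3 of F and 6 of G. The series holds 8 RNA-seq libraries: 3 of control mice and 5 of Smad2flox/flox;Smad3flox/flox;Pgr-cre mice, called cKO here, in which Cre recombinase is made from the progesterone receptor (Pgr) locus. Both groups are labelled as a mixed C57BL/6/129S6/SvEv background; the labels leave unstated the alleles of the controls, and age, cycle stage and pooling for either group. Per the labels, the knock-in is also active outside the uterus, among other places in ovary and pituitary, and within the uterus Cre acts in whichever cells express the receptor.

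ABC proteins use the energy of ATP to move substrates across membranes. Subfamilies A and G mainly move lipids and sterols, B and C export drugs, conjugates, peptides and metabolites or serve mitochondria, and D carries fatty acyl groups and cobalamin across the membranes of peroxisomes and lysosomes. Subfamilies E and F have the ATP-binding cassettes but no membrane-spanning part, and act in ribosome recycling and translation. In epithelia, ABC transporters of the apical membrane limit the entry of foreign compounds, and some ABC transporters release signalling lipids.

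The values are FPKM (fragments per kilobase of transcript, relative to all mapped fragments), summed over the transcripts of a gene and scaled between libraries, so that levels can be compared between genes per length. About 42.9 to 53.9 M mapped fragments per library were estimated from the deposited intervals. Smad2 was 3.58 ± 0.378 scaled FPKM (SD, n = 5) in cKO and 6.07 ± 0.342 (SD, n = 3) in control, and was called lower in cKO by limma (log2 fold change -0.63 ± 0.10, adjusted p = 0.00551). Smad3 was not called (30.7 ± 8.97 against 28.2 ± 3.07, adjusted p = 0.837) and neither was Pgr, which carries Cre (1.12 ± 0.381 against 1.38 ± 0.558, adjusted p = 0.609); reads from exons outside the floxed parts count toward both Smad genes. All 10 epithelial markers were tested and none was called, with a mean log2 level of 7.88 to 7.93 in control and 7.59 to 8.19 in cKO. Markers of other cells were also present: the mean log2 level of stromal markers was 2.73 to 3.80 in control and 2.12 to 3.48 in cKO, and that of neutrophil markers 2.92 to 3.95 and 3.60 to 5.63. Control 1 stood highest in stromal and smooth muscle markers (3.80 and 4.26). The mean log2 level of mitosis genes was 0.522 to 0.701 in control and 1.76, 0.586, 4.07, 3.02 and 2.10 in cKO 1 to 5. Only cKO 2 thus lay inside the control range. The median log2 fold change of the mitosis list was 1.74, with 0 of 18 tested called. The part of mitosis levels in the differences below was not tested. Libraries cKO 1 and cKO 2 carry sample titles from another number series than the other 6. In such bulk samples, fewer cells of a type and less RNA per cell cannot be told apart. Whether the libraries stem from different animals is not stated; p-values here thus speak of library-to-library spread, part of which may be technical.

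Of the 50 genes, 23 had 3 or more libraries with a scaled FPKM of 1 or higher and were tested together with all other genes (limma on log2(scaled FPKM + 1), Benjamini-Hochberg adjustment over 11315 genes). A total of 4 were called higher in cKO at an adjusted p below 0.05, the drug efflux gene Abcb1b, the lipid transporter gene Abca4 and the conjugate and prostanoid exporter genes Abcc1 and Abcc4, and 1 was lower, the cobalamin transporter gene Abcd4. The 5 calls were 21.7% of the tested members, where 14.3% of all tested genes were called, 7.27% higher and 6.98% lower. Among the 20 members at 1 or more in all 8 libraries, 3 were called, or 15.0%; Abca4 met the filter through the cKO libraries alone and Abcb1b through them and control 1. The remaining 18 tested members were not called, and 7 of the 23 passed 0.05 before adjustment, where 31.5% of all tested genes did. Control and cKO values were fully separate for 7 of the 23 members, or 30.4%, against 24.6% of all tested genes. The median log2 fold change of the 23 members was 0.07 and that of all tested genes -0.0050. Under an alternative scaling to TPM the median of all tested genes was -0.20 and that of tested members -0.11, and 23.5% of all calls were higher in place of 51.0%, so changes below are relative to the main scaling.

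**Figure D1:**
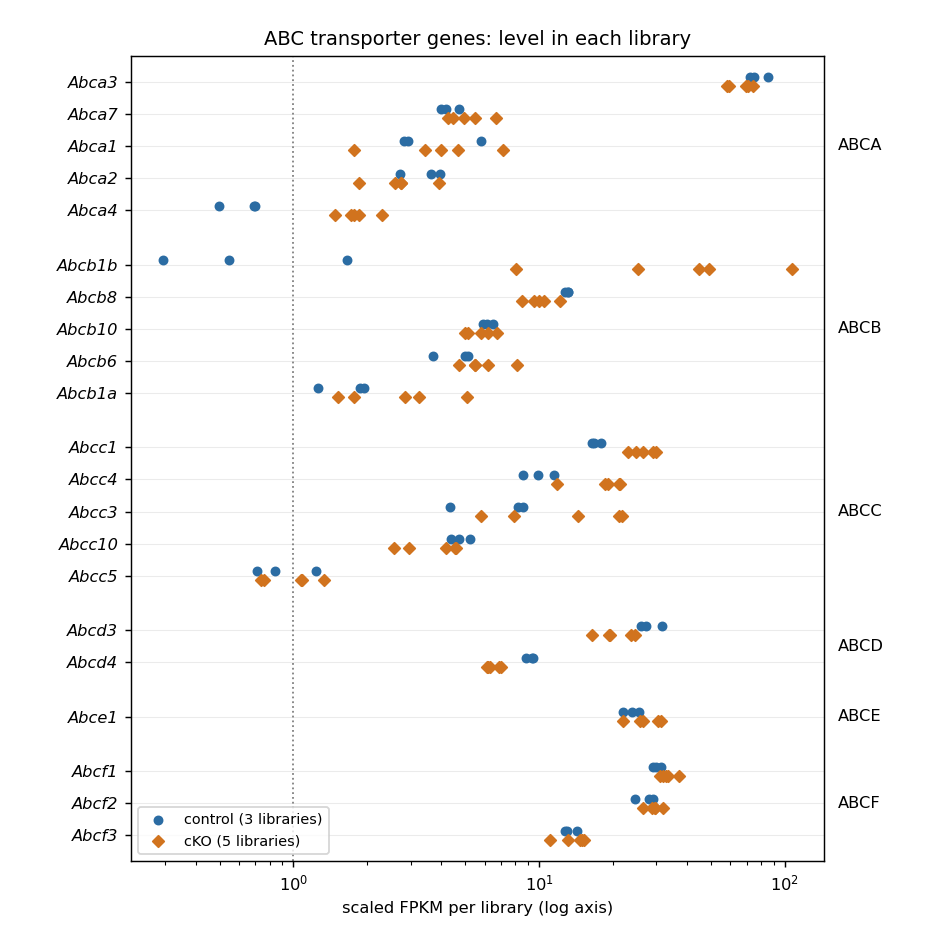
Scaled FPKM of 21 of the 23 tested ABC genes on a log axis, with 1 point per library (blue circles, 3 control; orange diamonds, 5 cKO), grouped by subfamily and ordered by mean level; the dotted line marks the filter at 1. Abca3 lies highest, and Abcb1b is the gene whose groups lie farthest apart, at 0.293 to 1.65 in control and 8.06 to 107 in cKO.

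Under the main scaling the 50 genes together gave a nearly constant summed level in the controls, at 299.2 to 300.3 scaled FPKM. In the cKO libraries it was 306.3 to 428.8. Without Abcb1b the sums were 298.0 to 300.01 in control and 281.1 to 327.1 in cKO, so the groups then overlapped. Single subfamilies varied more among the controls, with subfamily A at 84.4 to 97.2 and subfamily D at 39.3 to 44.1. Abcb1b made up 0.0976% to 0.552% of the summed level in control and 2.41% to 25.01% in cKO. Abca3 was the most abundant member in control and took 24.1% to 28.4% of the summed level there, and 15.7% to 22.2% in cKO, where Abcb1b exceeded it in cKO 5 alone.

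Promoter entries from RefSeq (GRCm38.p6) were matched for 38 of the 50 genes, and for 3 of the 5 called ones, Abcb1b, Abca4 and Abcc4. Their 250 bases before the annotated start are shown because these are the matched genes among those that rose. Capitals mark the SMAD box motif CAGAC, the box spelled CCAAT, the GC box motif GGGCGG and the TATA box motif TATAAA, each searched on both strands, and the marked matches do not overlap.
Abcb1b, chr5:8797897-8798146, plus strand: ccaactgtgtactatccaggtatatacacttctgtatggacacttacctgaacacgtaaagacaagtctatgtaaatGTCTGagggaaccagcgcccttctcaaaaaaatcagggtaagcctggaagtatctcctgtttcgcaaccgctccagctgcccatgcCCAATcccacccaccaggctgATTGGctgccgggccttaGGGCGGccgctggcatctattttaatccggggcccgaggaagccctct
Abca4, chr3:122044210-122044459, plus strand: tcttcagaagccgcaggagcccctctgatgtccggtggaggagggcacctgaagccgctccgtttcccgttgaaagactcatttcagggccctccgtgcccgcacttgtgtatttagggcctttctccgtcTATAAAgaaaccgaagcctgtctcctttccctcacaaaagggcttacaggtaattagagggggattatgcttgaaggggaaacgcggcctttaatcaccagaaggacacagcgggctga
Abcc4, chr14:118706220-118706469, minus strand: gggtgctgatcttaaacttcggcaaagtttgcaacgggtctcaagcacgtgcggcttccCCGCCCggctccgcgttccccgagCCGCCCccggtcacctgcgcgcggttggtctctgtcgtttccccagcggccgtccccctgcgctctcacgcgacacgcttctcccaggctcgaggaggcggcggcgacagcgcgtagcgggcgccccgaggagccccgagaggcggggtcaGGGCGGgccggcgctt
The Abcb1b sequence held 2 CCAAT matches, 1 GC box and 1 CAGAC, the Abca4 sequence 1 TATAAA and the Abcc4 sequence 3 GC boxes. Abcc4 has 2 promoter entries; the second, chr14:118676932-118677181, lies before the start of a transcript listed at 0 in every library, is not printed, and holds 1 CAGAC and no match to the other motifs. Among 32851 promoter sequences of the same length, 42.2% held CAGAC, 33.8% CCAAT, 32.7% GGGCGG and 12.4% TATAAA; 10.1% held at least 2 CCAAT and 16.7% at least 2 GC boxes. A match describes the letters only.

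The drug efflux genes of subfamily B lie side by side on chromosome 5: Abcb1a (8660092 to 8748570), Abcb1b (8798147 to 8866314) and Abcb4 (8893721 to 8959226, coordinates on mm10). Abcb1a and Abcb1b encode the rodent P-glycoproteins, which expel a wide range of hydrophobic compounds, and Abcb4 encodes a phosphatidylcholine translocase of bile canaliculi. Abcb1b measured 1.65, 0.545 and 0.293 scaled FPKM in the 3 controls in turn and 25.2, 44.6, 49.3, 8.06 and 107 in cKO 1 to 5. Every cKO library thus lay above every control, with a spread of more than 10-fold among the cKO libraries themselves. The group values were 46.9 ± 37.5 (SD, n = 5) and 0.830 ± 0.724 (SD, n = 3), and the log2 fold change was 4.36 ± 0.68 (limma, adjusted p = 0.00531). By group means Abcb1b was 56.4-fold higher, 112-fold higher without control 1 and 38.3-fold higher without cKO 5, and it was called in 21 of 21 alternative settings. The control values rest on an estimated 360.2, 131.4 and 71.0 fragments and the cKO values on 1807 to 21936.

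Its neighbour Abcb1a measured 1.86, 1.94 and 1.26 scaled FPKM in the 3 controls in turn and 1.76, 2.84, 3.25, 1.51 and 5.10 in cKO 1 to 5. The groups overlapped, with cKO 1 and cKO 4 inside the control range, and Abcb1a was not called (log2 fold change 0.47 ± 0.28, limma, adjusted p = 0.275). Without cKO 5 its cKO mean was 1.39-fold the control mean in place of 1.71-fold. The share of Abcb1b in the summed level of the Abcb1a and Abcb1b genes was 47.1%, 21.9% and 18.9% in the 3 controls in turn and 84.2% to 95.5% in cKO, lowest in cKO 4. Both genes thus contributed in control, and Abcb1b prevailed in each cKO library. The transcripts of the pair are alike: 18.3% of all 50-base words of the Abcb1b transcript also occur in another annotated gene, nearly all of them in Abcb1a, so a part of their reads cannot be assigned with certainty. Abcb4 was listed at 0.00587, 0.00918 and 0 scaled FPKM in the 3 controls in turn and at 0.0289, 0.0540, 0.0770, 0.0145 and 0.118 in cKO 1 to 5, too low to be tested, with an estimated 3.0 to 22.7 fragments in cKO; it shares 66 of its 4030 words with Abcb1b and 127 with Abcb1a.

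From highest to lowest, Abcb1b ranked the cKO libraries as cKO 5, 3, 2, 1 and 4. Abcb1a, Abcb4, Abcc3 and Abcc5 had the same order. Among tested members 4 of 23 had it, with Abcb1b, which set the order, included. Another of the 4, Abcb1a, shares 768 words of 50 bases with Abcb1b. Among all tested genes 117 of 11315, or 1.03%, had the order. As the order was taken from these same values, these counts are no test of the members. The mean log2 levels of endothelial markers (0.513 to 0.991 in cKO, 0.745 to 1.12 in control) and macrophage markers (1.002 to 1.55 in cKO, 1.24 to 1.64 in control) took this order too, as did those of the cholesterol efflux partners described further on, 3 of 22 lists. Of the endothelial and macrophage lists 5 of 11 genes each were tested and none was called. Endothelial Eng was listed at 0 in control 3 and cKO 4, and macrophage Cd163 in 5 of 8 libraries. Control 1 had the highest level of the endothelial and macrophage lists, and the highest Abcb1b of the controls at 1.65. The neutrophil list, with a median log2 fold change of 1.26, had 2 of 10 tested members called higher and 0 lower. Of all tested genes 7.27% were higher and 6.98% lower. Retnlg, 1 of the 2, was at the filter in 1 control, and none of the neutrophil markers was at 0. The mean log2 level of the neutrophil list was 4.34, 5.17, 5.63, 3.60 and 5.03 in cKO 1 to 5, against 2.92 to 3.95 in control. Only cKO 4 thus lay inside the control range, and the other cKO libraries lay above it. The part of the endothelial, macrophage and neutrophil levels in the differences among cKO libraries or between groups was not tested.

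**Figure D2:**
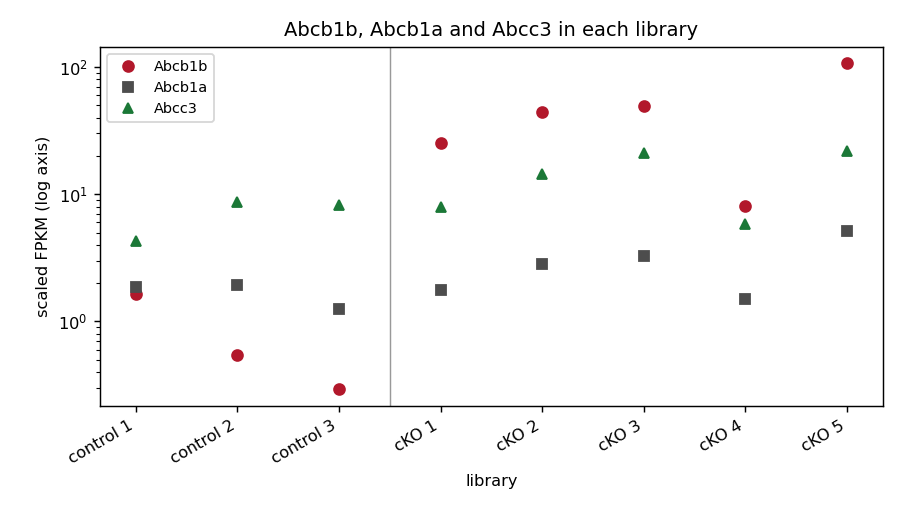
Scaled FPKM (log axis) of Abcb1b (circles), Abcb1a (squares) and Abcc3 (triangles) in each of the 8 libraries. All 5 cKO values of Abcb1b exceed the control values, while Abcb1a and Abcc3 overlap between groups; each gene is highest in cKO 5 and lowest of the cKO libraries in cKO 4.

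Subfamily C holds the multidrug resistance-associated proteins, and its summed level was 38.7, 39.6 and 42.2 scaled FPKM in control and 52.6, 65.9, 76.7, 55.9 and 69.9 in cKO. The groups of this sum did not overlap. Of 5 tested genes, 2 were higher, 0 lower and 3 not called, where 7.27% of all tested genes were higher and 6.98% lower. Abcc1 (chromosome 16, 14361558 to 14474878), which exports glutathione conjugates and leukotriene C4, measured 16.4, 16.7 and 17.8 in the 3 controls in turn and 29.2, 24.8, 29.8, 26.5 and 23.0 in cKO 1 to 5. The lowest cKO library exceeded the highest control, and the spread within each group was small beside the difference. Abcc1 rose from 16.9 ± 0.750 to 26.6 ± 2.88, 1.57-fold, and its log2 fold change was 0.62 ± 0.10 (adjusted p = 0.00720 by limma). With TPM it missed the threshold (0.43, adjusted p = 0.0520).

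Abcc4 (chromosome 14, 118482692 to 118706219), an exporter of prostaglandins and cyclic nucleotides, measured 11.5, 8.62 and 9.94 scaled FPKM in the 3 controls in turn and 11.8, 21.1, 21.3, 18.5 and 19.2 in cKO 1 to 5. Library cKO 1 lay just above control 1, and the other 4 cKO libraries well above all controls. The log2 fold change was 0.80 ± 0.19 (limma, adjusted p = 0.0254), 1.84-fold by group means. The call was lost in 6 of 21 alternative settings: without control 2 (log2 fold change 0.70, adjusted p = 0.124), control 3 (0.80, 0.0964) or cKO 5 (0.78, 0.0521), with TPM (0.63, 0.0791), with a term for stromal and muscle markers (0.88, 0.0695), and with the most abundant transcript in place of the sum (0.73, 0.117). Over all 21 settings the log2 fold change of Abcc4 was 0.63 to 0.94.

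The 3 annotated Abcc4 transcripts were estimated separately by the authors. NM_001033336 (5729 bases) took 74.02% to 81.1% of the gene's level in control, and 37.5%, 77.7%, 100%, 68.5% and 66.0% in cKO 1 to 5. The shorter NM_001163676 made up the rest, listed at 0 in cKO 3 and at 62.5% in cKO 1, and NM_001163675, which starts within the gene, was listed at 0 in every library. The promoter printed above belongs to the start shared by both measured transcripts. The split between them varied over a wider range among the 5 cKO libraries than among the 3 controls, and was not tested. Both transcripts have the same start and end, with lengths of 5729 and 5504 bases. A part of their reads thus cannot be assigned with certainty, and the split is an uncertain estimate.

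**Figure D3:**
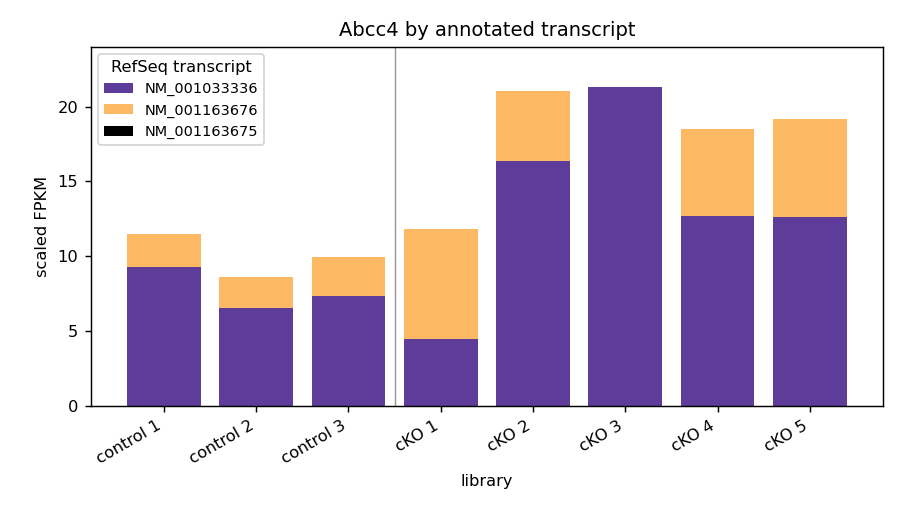
Stacked bars of the scaled FPKM of the annotated Abcc4 transcripts in each library, with the bar height giving the gene's sum. The cKO libraries reach 11.8 to 21.3 against 8.62 to 11.5 in control, and NM_001163676 is the larger part in cKO 1 and listed at 0 in cKO 3.

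The other tested subfamily C genes were not called. Abcc3, an exporter of glucuronides and bile salts, measured 4.33, 8.63 and 8.18 scaled FPKM in the 3 controls in turn and 7.94, 14.4, 21.2, 5.82 and 21.7 in cKO 1 to 5. Library cKO 1 and library cKO 4 lay within the control range and the other 3 above it (log2 fold change 0.81 ± 0.42, limma, adjusted p = 0.222); Abcc3 was singled out after its values were seen. Abcc10 was 3.77 ± 0.944 against 4.78 ± 0.438 and Abcc5, an exporter of cyclic nucleotides, 0.997 ± 0.247 against 0.929 ± 0.270.

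In subfamily A, 1 of 5 tested genes was higher, 0 lower and 4 not called, against 7.27% higher and 6.98% lower of all tested genes. Abca4 (chromosome 3, 122044460 to 122180061), best known for clearing retinoid adducts from photoreceptor membranes, measured 0.691, 0.696 and 0.497 scaled FPKM in the 3 controls in turn and 1.72, 2.29, 1.76, 1.48 and 1.84 in cKO 1 to 5. All cKO libraries lay above all controls, at a low level in both groups. The means were 1.82 ± 0.296 and 0.628 ± 0.113, 2.89-fold apart, and the log2 fold change was 0.79 ± 0.13 (adjusted p = 0.00608 by limma). Abca4 met the filter through the cKO libraries alone, and was called in all 20 alternatives in which it was tested. With the filter at FPKM 5 it was left out. Its values rest on an estimated 201.2 to 280.2 fragments in control and 552.5 to 771.8 in cKO.

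Abca3, which loads phospholipids into the lamellar bodies of lung cells, measured 85.2, 72.2 and 74.7 scaled FPKM in the 3 controls in turn and 59.2, 69.7, 58.0, 74.3 and 70.9 in cKO 1 to 5. The groups overlapped and Abca3 was not called (log2 fold change -0.22 ± 0.12, limma, adjusted p = 0.228; called lower with quantile normalization). Its transcript NM_013855 held 55.9% to 61.4% of the level in control and 41.5% to 70.1% in cKO. The adjacent Abca17 reached at most 0.189 in any library. Abca7, a lipid transporter of phagocytes and brain, was 5.17 ± 0.961 against 4.30 ± 0.366 (log2 fold change 0.21 ± 0.13, adjusted p = 0.319). The cholesterol efflux gene Abca1, a target of the liver X receptors, was 4.19 ± 1.95 against 3.85 ± 1.68, and Abca2 was 2.77 ± 0.748 against 3.42 ± 0.638.

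Subfamily D was lower as a sum, at 39.3, 44.1 and 39.4 scaled FPKM in control and 28.5, 26.5, 35.1, 33.4 and 29.1 in cKO, with no overlap. Of 3 tested genes, 0 were higher, 1 was lower and 2 were not called, against 7.27% higher and 6.98% lower of all tested genes. Abcd4 (chromosome 12, 84602531 to 84617466), which carries cobalamin out of lysosomes together with LMBRD1, measured 9.36, 8.88 and 9.46 in the 3 controls in turn and 6.88, 6.99, 6.11, 6.30 and 6.21 in cKO 1 to 5. The groups were tight and separate. Abcd4 fell from 9.24 ± 0.310 to 6.50 ± 0.406, or -0.45 ± 0.08 on the log2 scale (adjusted p = 0.00999 by limma), and missed the threshold without control 2 (adjusted p = 0.0509) or control 3 (0.0634).

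Abcd3, the peroxisomal membrane protein that takes up branched-chain and dicarboxylic acyl groups, was the most abundant gene of subfamily D. It measured 26.1, 31.6 and 27.3 scaled FPKM in the 3 controls in turn and 19.4, 16.5, 24.5, 23.7 and 19.3 in cKO 1 to 5. No cKO library reached the lowest control, but the log2 fold change of -0.45 ± 0.14 missed the threshold (limma, adjusted p = 0.0655) and was called in 4 of 21 alternatives, with TPM, quantile normalization, array weights or without cKO 3. Abcd2 was under 0.05 in every library.

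**Figure D4:**
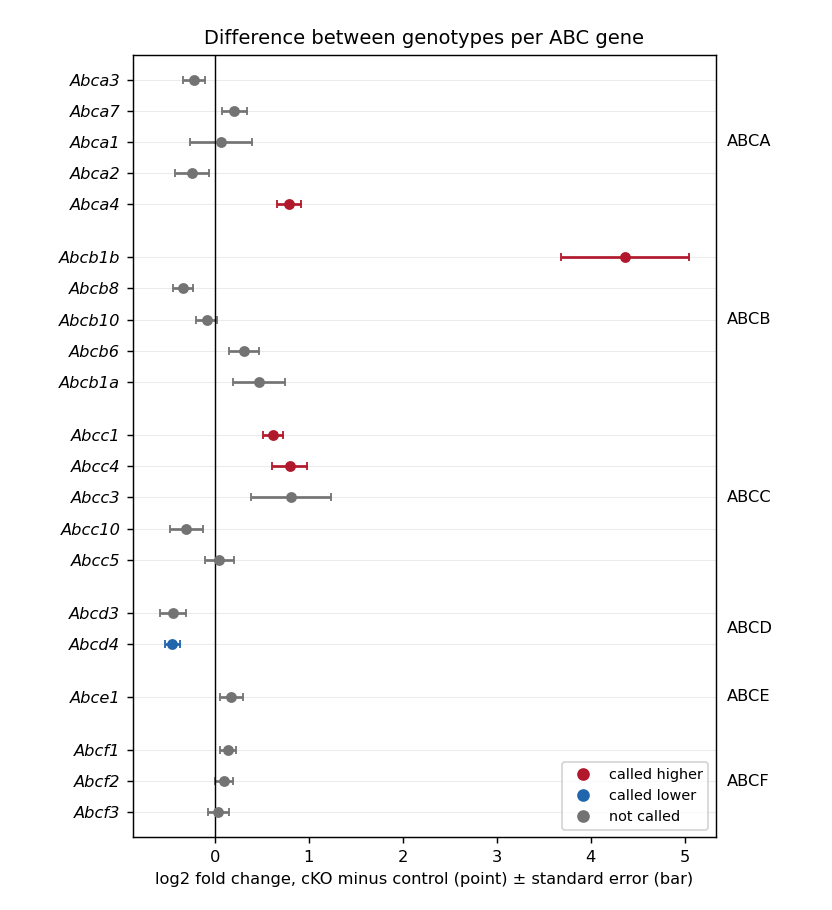
Log2 fold change (cKO minus control) of the same 21 ABC genes on the log2(scaled FPKM + 1) scale, with its standard error from the limma fit; red marks genes called higher, blue lower, grey not called. Abcb1b lies at 4.36 and the other genes drawn between -0.45 and 0.81. The added 1 shrinks differences of genes near or under 1. With 0.1 added in its place, Abca4 was at 1.40 and Abcb1b at 5.50.

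Mitochondrial members of subfamily B, which take part in heme and iron metabolism, were measured in every library, and Abcb8, Abcb10 and Abcb6 were not called. Abcb8, of the inner membrane, measured 13.1, 12.7 and 13.2 scaled FPKM in the 3 controls in turn and 8.52, 10.02, 10.5, 12.2 and 9.55 in cKO 1 to 5. The groups did not overlap, and the log2 fold change was -0.34 ± 0.11 (limma, adjusted p = 0.0747; called in 3 of 21 alternatives, with TPM, array weights or without cKO 4). Abcb10, also of the inner membrane, was 5.78 ± 0.730 against 6.17 ± 0.287, and Abcb6 6.003 ± 1.29 against 4.61 ± 0.787. Of the 50-base words of Abcb6, 90.3% also occur in the annotated gene Gm29253, so its reads are not certain to be its own. Without Abcb1b the sum of subfamily B was 31.3 ± 0.663 in control and 30.7 ± 3.60 in cKO.

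The cytosolic members were abundant and 0 of 4 was called, where 14.3% of all tested genes were. Abce1, which splits ribosomes after termination, measured 22.02, 25.6 and 23.9 scaled FPKM in the 3 controls in turn and 26.6, 22.1, 31.3, 30.5 and 25.8 in cKO 1 to 5 (log2 fold change 0.18 ± 0.12, limma, adjusted p = 0.354). Abcf1, a factor of translation initiation, was 33.3 ± 2.40 against 30.1 ± 1.15 (0.14 ± 0.09, adjusted p = 0.296), and Abcf2 29.3 ± 1.97 against 27.2 ± 2.37 (0.10 ± 0.09, adjusted p = 0.485). With TPM the sign of these differences turned. Abcf3 was 13.8 ± 1.73 against 13.3 ± 0.787, and its log2 fold change ran from -0.16 to 0.11 over the alternatives.

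No gene of subfamily G met the filter. Abcg2, an apical efflux pump for xenobiotics and urate, measured 0.916, 2.05 and 0.731 scaled FPKM in the 3 controls in turn and 0.375, 0.306, 0.652, 0.346 and 0.235 in cKO 1 to 5. Every cKO library lay under every control, with estimated fragments of 101.6 to 283.6 in control and 27.6 to 74.0 in cKO. Without a filter the log2 fold change of -0.65 missed the threshold (limma, adjusted p = 0.0757), and with TPM, where Abcg2 met the filter, it was -1.13 and called (adjusted p = 0.0322). The cKO mean was 0.311 times the control mean, and 0.465 times without control 2. Abcg1, a sterol exporter of macrophages, measured 0.205, 0.217 and 0.540 in controls and 0.228, 0.550, 0.304, 0.272 and 0.294 in cKO. Abcg3, Abcg4 and the sterol transporter pair Abcg5 and Abcg8 stayed under 0.1 in all libraries.

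Of the 27 members without a test, 16 were under 0.1 scaled FPKM in every library and 3, Abca14, Abca15 and Abca16, were listed at 0 in all 8. The last 3 are neighbours on chromosome 7. The lipid transporter genes Abca5, Abca6, Abca8a, Abca8b and Abca9, which lie in a row on chromosome 11, reached at most 0.388. The bile salt pump gene Abcb11 and the apical conjugate pump gene Abcc2 reached at most 0.00755 and 0.0632. Abcc9, a subunit of potassium channels of muscle and pericytes, was 0.842 in control 1, the library highest in stromal and muscle markers, and 0 to 0.272 in the other 7. No member overlapped a gene of another symbol that was measured above 0, apart from Abcg5 and Abcg8, which overlap each other.

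Of 3 ABC proteins whose symbols lie outside the naming rule, 0 was called, where 14.3% of all tested genes were. The peptide transporter genes Tap1 and Tap2, which feed peptides to MHC class I, were 35.8 ± 10.5 against 24.7 ± 3.31 and 27.3 ± 4.98 against 25.8 ± 4.80 scaled FPKM (limma, adjusted p = 0.174 and 0.777). The chloride channel gene Cftr was 18.1 ± 8.16 against 30.6 ± 11.1 (log2 fold change -0.76 ± 0.34, adjusted p = 0.159). The sign for Tap2 turned in 5 of 21 alternatives.

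Genes that work with ABC transporters were read from the same fit. Beside each count of calls stands the same background, 7.27% of all tested genes higher and 6.98% lower. Of 10 tested uptake carriers for drugs and prostaglandins, 3 were higher and 0 lower, with a list median of -0.25; Slco1a5, 1 of the 3, met the filter through the cKO libraries alone. The organic anion carrier gene Slco1a5 measured 0.435, 0.420 and 0.220 scaled FPKM in the 3 controls in turn and 10.8, 13.7, 14.2, 4.82 and 12.4 in cKO 1 to 5, with no overlap and every control below the filter (log2 fold change 3.09 ± 0.29, adjusted p = 0.00059). It was lowest of the cKO libraries in cKO 4, as Abcb1b was, but highest in cKO 3 and not in cKO 5. This likeness was not tested. The ergothioneine and carnitine carrier gene Slc22a4 rose from 5.43 ± 1.13 to 13.4 ± 3.63 (1.14 ± 0.20, adjusted p = 0.00794) and Slco4a1 from 27.6 ± 6.93 to 56.1 ± 13.6 (0.99 ± 0.22, adjusted p = 0.0214). The call of Slco4a1 was lost without cKO 1 and cKO 2 together, without control 2, without control 3, and when stromal and muscle level entered the fit. The prostaglandin carrier gene Slco2a1 was not called.

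Among 13 tested nuclear receptors and other regulators of ABC genes, 0 were higher and 2 lower, with a median of -0.23. Nfe2l2, which encodes the oxidative stress factor NRF2, fell from 111.0 ± 6.35 to 84.1 ± 5.61 scaled FPKM (-0.40 ± 0.09, limma, adjusted p = 0.0252), and the sterol factor gene Srebf2 from 66.3 ± 5.33 to 52.0 ± 3.22 (-0.34 ± 0.09, adjusted p = 0.0403). Of 21 alternatives, 6 ended the first call and 9 the second, and leaving out any 1 of the 3 controls did so for both. The xenobiotic receptor genes Nr1i2 and Nr1i3 stayed under 0.05 in every library, Nr1i3 at 0.

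Cholesterol and phospholipid efflux partners (0 of 12 tested called) and peptide loading partners of TAP (0 of 12) had no calls; the most abundant were Lpcat3 (65.1 ± 11.3 against 85.8 ± 9.56) and Npc2 (81.6 ± 19.8 against 83.7 ± 4.08), and B2m (1016 ± 192 against 784.2 ± 128) and Calr (916.03 ± 242 against 614.7 ± 192). Of 19 mitochondrial heme and iron-sulfur partners, the mitoferrin gene Slc25a28 was higher (0.40 ± 0.12, adjusted p = 0.0486, lost in 15 of 21 alternatives) and the heme synthesis gene Uros lower, from 7.58 ± 0.774 to 4.53 ± 0.535 (-0.64 ± 0.11, adjusted p = 0.00889, lost without control 2 or without control 3). Of 17 peroxisome and cobalamin partners, the fatty acid carrier gene Slc27a4 was higher (0.41 ± 0.11, adjusted p = 0.0435, lost in 11) and the peroxisomal import gene Pex14 lower (-0.33 ± 0.08, adjusted p = 0.0238, lost in 5). Of 12 ribosome recycling and translation partners, the initiation factor gene Eif2s2 was higher (0.48 ± 0.11, adjusted p = 0.0265, lost in 8) and 0 lower. Both subunit genes of ATP-sensitive potassium channels were under the filter.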

How the data were processed

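RNA of uterine epithelium from 3 control and 5 Smad2/3 cKO samples was copied to cDNA with random and poly-dT primers and sequenced, per the labels' protocols. Per the submitters' processing notes, the tools were TopHat and Cufflinks after bcl2fastq 1.8.3, on mm10; further versions, annotation release and strand setting: not given in the sources used here. Deposited by the authors were FPKM values with intervals for 34535 RefSeq transcripts, each library on its own, per the file headers. FPKM was summed per symbol and scaled by each library's median ratio to gene-wise geometric means, from genes at FPKM 1 or more throughout (factors 0.924 to 1.06); 15 genes with a status other than OK were left out, none of them a member. limma 3.58.1 (R 4.3.3) with a variance trend was run on log2(scaled FPKM + 1), two-sided, adjusted p below 0.05. A check on simulated data gave control and cKO the same spread for each gene, so it does not cover unequal spreads. Fragment numbers were estimated from the deposited intervals. Read counts were not used, so depth behind each value is approximate. Coordinates are 1-based. Tried were 21 alternatives in scaling, pseudocount, filter, status, variance, libraries, covariates and gene summary. Named were called members, the 2 most abundant of each subfamily, uncalled members without overlap changed at least 1.5-fold, Abcb1a, Abcb1b and Abcb4 as neighbours, Tap1, Tap2 and Cftr, Smad2, Smad3 and Pgr, and up to 4 called genes or the 2 most abundant of each partner list; other genes with values were singled out after these were seen. The members, lists and rules were chosen with earlier results of these data known. Values of 2 tested members are not reported here; counts, sums and medians include them.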

Additional observations from a re-analysis of the deposited data

Results flagged for a closer look

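In 46 genes looked at, the gap of the highest or lowest of the 5 cKO libraries to its neighbour was compared with the range of the group on the log2(scaled FPKM + 1) scale, and exceeded Dixon's limit of 0.71 in 4; chance gives about 1 in 20. Abcc4 was low in cKO 1 (11.8 scaled FPKM, ratio 0.755), the library in which its shorter transcript took the larger share. Abcg1 was high in cKO 2 (0.550, ratio 0.744). Slco1a5 was low in cKO 4 (4.82, ratio 0.737), and B2m was low in cKO 4 (687, ratio 0.735).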

How the results depend on the processing

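No paired analysis was possible because the labels give the libraries no replicate number that control and cKO share. The number of ABC genes called higher in cKO was 4, and 2 with TPM; leaving out 1 library gave 3 to 4. The number called lower was 1, and 4 with TPM, 3 with quantile normalization and 3 with array weights; leaving out 1 library gave 0 to 2, with 0 without control 2 or control 3 and 2 without cKO 3 or cKO 4. Of all tested genes 823 were higher and 790 lower (1613 in all). TPM gave 510 and 1662, array weights 1793 and 1733 (3526), and a term for stromal and muscle level 359 and 309 (668). Leaving out 1 library gave 238 to 935 higher, 176 to 892 lower and 419 to 1827 in all. Among the genes followed through the alternatives, the sign turned for uncalled genes only. With TPM the log2 fold change was -0.022 for Abce1, -0.062 for Abcf1, -0.10 for Abcf2, -0.12 for Tap2 and -0.13 for Smad3. For Smad3 it was -0.019 with array weights, -0.049 without cKO 1, and -0.19 both without cKO 1 and cKO 2 and with their title series as a term; leaving out 1 library gave -0.049 to 0.20. For Tap2 it was -0.022 with array weights, -0.057 without control 1, -0.018 without cKO 5 and -0.071 with the stromal and muscle term, and leaving out 1 library gave -0.057 to 0.20. It was 0.020 for Pgr without control 1 (leave-one-out -0.31 to 0.020), 0.040 for Npc2 without cKO 4 (-0.19 to 0.040) and -0.023 for B2m with quantile normalization. The cause of these changes was not tested, apart from there being fewer samples when a library is left out. Over the 17 ABC genes followed through the alternatives, 274 of 295 values kept direction and side of the threshold, 9 lost the call, 9 gained one and 3 turned sign. Outside these 17, the uncalled members Abca1, Abcb10, Abcc5 and Abcf3 also turned sign in some alternatives. Their log2 fold changes ran from -0.11 to 0.39, -0.29 to 0.016, -0.072 to 0.29 and -0.16 to 0.11 in turn. Some genes under 1 FPKM rest on few fragments, such as an estimated 27.6 to 74.0 for Abcg2 in cKO. Others rest on more, such as 201.2 to 280.2 for Abca4 in control.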
